A study of Drosophila melanogaster with 6 samples.

Results

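The Jun N-terminal kinase (JNK) pathway was examined through 10 genes, out of 17807 genes in the table. They were chosen by name, with earlier results of these data known, and matched by FlyBase symbol. Their unadjusted p-values are therefore not those of genes picked without sight of the data. They are the ligand gene egr, the receptor gene grnd, the kinase genes msn, hep and bsk, the AP-1 genes Jra and kay, the feedback phosphatase gene puc, the metalloproteinase gene Mmp1 and the tetraspanin gene Tsp42Ej. Tsp42Ej is not on the list of reported JNK target genes read further below, so its place in the pathway is not given here. All 10 had a row, and 9 reached the minimum level for testing.

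JNK signalling passes a stress or cytokine signal along a chain of kinases to the JNK protein, which phosphorylates the transcription factor AP-1, a dimer of Jun and Fos. AP-1 switches on puc, whose product dephosphorylates JNK and so closes a negative feedback loop. In the adult fly midgut the pathway is known for driving intestinal stem cell division after stress, infection and with age. Most of this regulation is by phosphorylation, which transcript levels do not measure.

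RNA came from midgut progenitors, meaning stem cells (ISC) and the enteroblasts (EB) they produce, collected as GFP-positive cells from 70 pooled guts per replicate, at most 100000 cells each. The 3 H1 RNAi libraries carried a temperature-sensitive esg driver (esgts), UAS-GFP and a single hairpin transgene, named H1 RNAi 1, against the linker histone H1, the protein that binds DNA between nucleosomes. The 3 control libraries carried esgts and UAS-GFP, so both groups had the driver, the reporter and the temperature shift, and the driver is active in esg-expressing cells. The sample labels give an induction of 4 days at 29 °C for both groups, whereas the growth protocol, written for a Dam transgene, gives 1 day at 29 °C for flies of 3 days held at 18 °C before, and which of these applies is not settled by the labels. Sex is not given, and whether replicates A, B and C stem from independent crosses or days is not stated, so the p-values rest on a spread between libraries that may be technical.

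Values are TPM, transcript abundances scaled by gene length and library total, and the depth behind them is unknown. A level of 1 TPM was reached by 7767 to 8316 genes in a library. The knockdown could not be checked, since all 23 His1 rows were listed at 0 in all 6 libraries, control libraries included, and the kit selects polyadenylated RNA, which histone H1 transcripts of this cluster normally are not. Of the progenitor markers looked up, esg and Dl had no row matched by symbol, and the other 7 summed to between 1531 and 1706 TPM in H1 RNAi and between 1378 and 1734 TPM in control. Transcripts of other cells were present as well. The 12 enterocyte markers summed to between 640 and 1740 TPM in H1 RNAi and between 459 and 1526 TPM in control. The 13 enteroendocrine markers summed to between 1071 and 1590 TPM in H1 RNAi and between 2392 and 3207 TPM in control. Of the 13, 3 were called lower in H1 RNAi (NPF, Tk and IA-2) and 0 higher, against 0.554% and 2.28% of all tested genes. NPF made up most of that sum, with a mean of 1139 TPM in H1 RNAi and 2309 TPM in control. In 7 of the 13 (pros, Tk, NPF, amon, IA-2, Rab3 and Syt4) all H1 RNAi values were below all control values, where 6.45% of all tested genes are. The list median log2 fold change was -0.73. Only 2, Mip and CCHa2, lay the other way without overlap, where 24.3% of all tested genes do. They averaged 11.1 and 3.28 TPM in H1 RNAi and 4.29 and 1.09 TPM in control (adjusted p = 0.104 each, limma). Of the 14 heat shock and dissociation genes 13 were tested, and of the 7 fat body markers 2. By limma 0 were called in either list, against 2.83% of all tested genes. At an unadjusted p under 0.05 there were 1 and 2 in these lists, against 23.8% of all tested genes. Control B stood apart, with the yolk protein genes Yp1 and Yp2 at 43.52 and 22.65 TPM, against at most 0.34 and 0.65 TPM in H1 RNAi libraries and 0.83 and 0.59 TPM in the other control libraries, and the fat body list summed to between 102 and 107 TPM in H1 RNAi and between 89.8 and 139 TPM in control. The enterocyte genes mesh, Tsp2A, Ssk and Mal-A1 were also highest in control B, at 48.99, 61.38, 62.34 and 277.81 TPM. The next highest library for them was H1 RNAi B, at 17.1, 28.64, 27.33 and 68.19 TPM. Of the other enterocyte markers, Myo31DF (492.62 TPM), nub (3.2 TPM) and pdm2 (0.37 TPM) were highest in control B as well. The remaining ones, betaTry, alphaTry, Jon65Aiv, LManVI and Hnf4, were highest in other libraries. Results are therefore also given without control B where that changes a call. In sorted populations of this kind, fewer cells of a type and less RNA per cell cannot be told apart.

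Transcripts of the ligand, kinases, AP-1, puc and Mmp1 were abundant in these progenitors and were not called different between H1 RNAi and control, while the receptor gene grnd was below 0.25 TPM throughout. Tsp42Ej averaged 9.05 ± 0.901 TPM in H1 RNAi and 5.24 ± 0.548 TPM in control (SD, n = 3 each) and narrowly missed the threshold. The comparison used limma on log2(TPM + 1) over the 8124 genes that reached 1 TPM in 3 or more libraries, with p-values adjusted over all of them by the method of Benjamini and Hochberg. None of the 9 tested genes passed an adjusted p of 0.05, against 2.83% of all tested genes, with 2.28% higher and 0.554% lower in H1 RNAi. At an unadjusted p under 0.05 there was 1 of 9, Tsp42Ej, which was higher, against 23.8% of all tested genes, with 19.1% higher and 4.75% lower. The median log2 fold change of the 9 genes was -0.04, against 0.14 for all tested genes. A log2 fold change below 0 was found for 7 of the 9 genes, against 31.7% of all tested genes. Among these 7, msn, bsk, kay, puc and Mmp1 lay closer to 0 than their SE, so their signs carry little weight. With TMM scaling, which aligns libraries on a trimmed mean ratio, the medians of the 9 genes and of all tested genes were -0.18 and 0.01, and with quantile normalization -0.07 and -0.01.

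**Figure D1:**
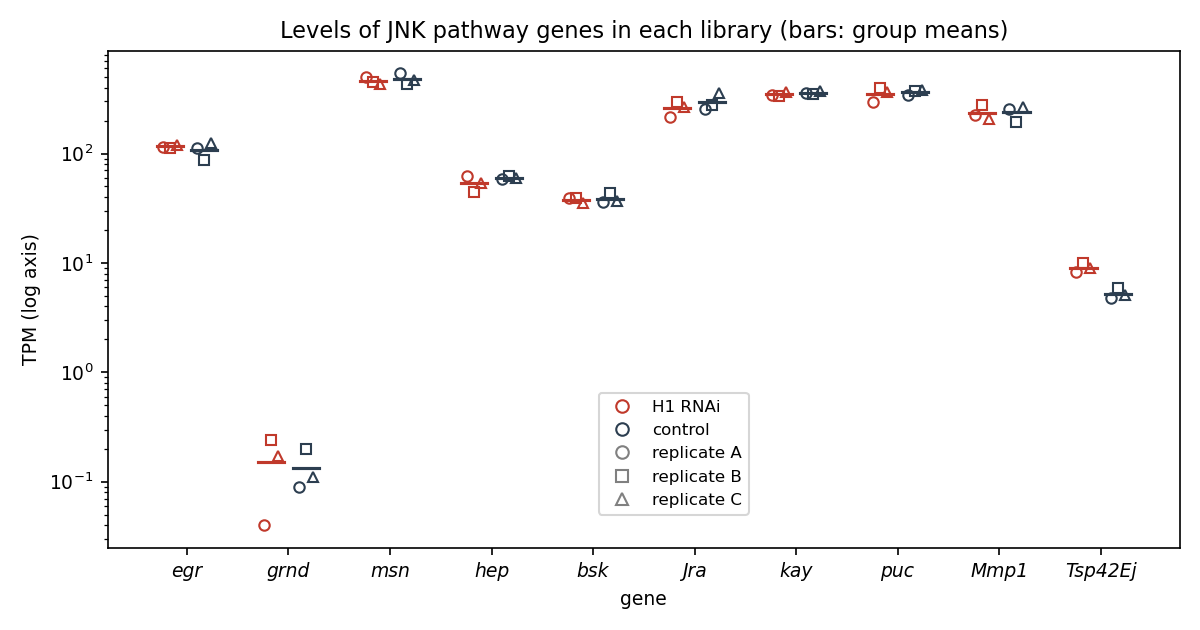
TPM (log axis) of the 10 JNK pathway genes in each library, with H1 RNAi in red to the left of control in dark blue, a marker shape per replicate and bars at the group means. The groups overlap for every gene except Tsp42Ej, and grnd lies below 0.25 TPM in all 6 libraries.

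The order of the levels spanned more than 3 powers of 10. In H1 RNAi the means ran from 458 TPM for msn through puc (353 TPM), kay (349 TPM), Jra (259 TPM), Mmp1 (236 TPM), egr (116 TPM), hep (53.5 TPM) and bsk (37.9 TPM) to 9.05 TPM for Tsp42Ej and 0.15 TPM for grnd. The control means had the same order, from 481 TPM for msn to 0.133 TPM for grnd. The ranges over libraries overlapped between puc and kay and between Jra and Mmp1 in both groups, and between kay and Jra in control, so these neighbours were not separated by their spread. All other neighbours had ranges that did not overlap. The highest of these genes stood near the top of the transcriptome, where percentile ranks of mean TPM among tested genes were 97.1 for msn, 96.4 for puc, 96.3 for kay, 95.3 for Jra and 94.7 for Mmp1, while bsk, the JNK gene itself, ranked at 67.6 and Tsp42Ej at 25.2.

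The ligand was well expressed and its receptors were not. The gene egr (2R, 10078366 to 10084210 in BDGP6.54, plus strand) encodes Eiger, the fly tumour necrosis factor. It had 115.56, 112.99 and 120.41 TPM in H1 RNAi libraries A, B and C, against 112.06, 87.15 and 124.89 TPM in control libraries A, B and C. The H1 RNAi values lay inside the control range, and control B was the lowest of the 6. The log2 fold change was 0.12 ± 0.15 (SE, adjusted p = 0.664, limma), with a 95% interval from 0.85-fold to 1.39-fold.

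The gene grnd (2L, 18485417 to 18488021, plus strand) encodes Grindelwald, a receptor for Eiger. It was listed at 0.04, 0.24 and 0.17 TPM in H1 RNAi libraries A, B and C, and at 0.09, 0.20 and 0.11 TPM in control libraries A, B and C. These values are close to the 2-decimal resolution of the table, and no fold change was drawn from them. Fitted with no filter on low values, among 13713 genes, grnd had an adjusted p of 0.928 (limma). It shares 275 bp of exon with kon on the opposite strand, which lay between 0.64 and 0.79 TPM in H1 RNAi and between 0.53 and 0.99 TPM in control, and the sources used here do not say how reads over both genes were assigned. The second Eiger receptor gene, wgn, was at 0.41, 0.70 and 0.57 TPM in H1 RNAi and at 0.35, 0.52 and 0.29 TPM in control. Per length, egr transcripts thus outnumbered wgn transcripts by 161 to 282 times over the H1 RNAi libraries and by 168 to 431 times over the control libraries.

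The kinase genes were expressed in both groups, with hep more variable within H1 RNAi than msn and bsk. The gene msn (3L, 2554847 to 2586540, minus strand) encodes Misshapen, a Ste20-family kinase that acts upstream of JNK and is also known in enteroblasts for acting on the Hippo pathway kinase Warts. It had 496.49, 446.39 and 432.21 TPM in H1 RNAi A, B and C, against 540.92, 432.40 and 468.44 TPM in control A, B and C. The 2 A libraries were the highest of their groups. With H1 RNAi the log2 fold change was -0.06 ± 0.12 (SE, adjusted p = 0.796), with an interval from 0.78-fold to 1.17-fold.

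The gene hep (X, 13079205 to 13090434, minus strand) encodes Hemipterous, the kinase that phosphorylates JNK. It had 61.86, 44.88 and 53.90 TPM in H1 RNAi, against 58.64, 62.08 and 59.54 TPM in control. The control libraries lay close together, and H1 RNAi B and C were below all of them while H1 RNAi A was not. Its log2 fold change was -0.17 ± 0.13 (SE, adjusted p = 0.466), with an interval from 0.71-fold to 1.10-fold. It was -0.06 without H1 RNAi B, -0.28 without H1 RNAi A and -0.31 with TMM scaling, and not called in any of the 15 alternatives.

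The gene bsk (2L, 10247502 to 10250501, minus strand) encodes Basket, the fly JNK. It had 39.47, 38.91 and 35.21 TPM in H1 RNAi, against 35.81, 43.18 and 36.51 TPM in control. Control B was the highest of the 6, and the other libraries lay between 35.21 and 39.47 TPM. On the log2 scale the fold change was -0.02 ± 0.11 (SE, adjusted p = 0.931), with an interval from 0.82-fold to 1.18-fold. Transcripts of msn exceeded those of bsk by 12.1 ± 0.572 times in H1 RNAi and by 12.6 ± 2.55 times in control, and those of hep exceeded bsk by 1.42 ± 0.229 and 1.57 ± 0.113 times in the same groups (SD, n = 3 each).

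**Figure D2:**
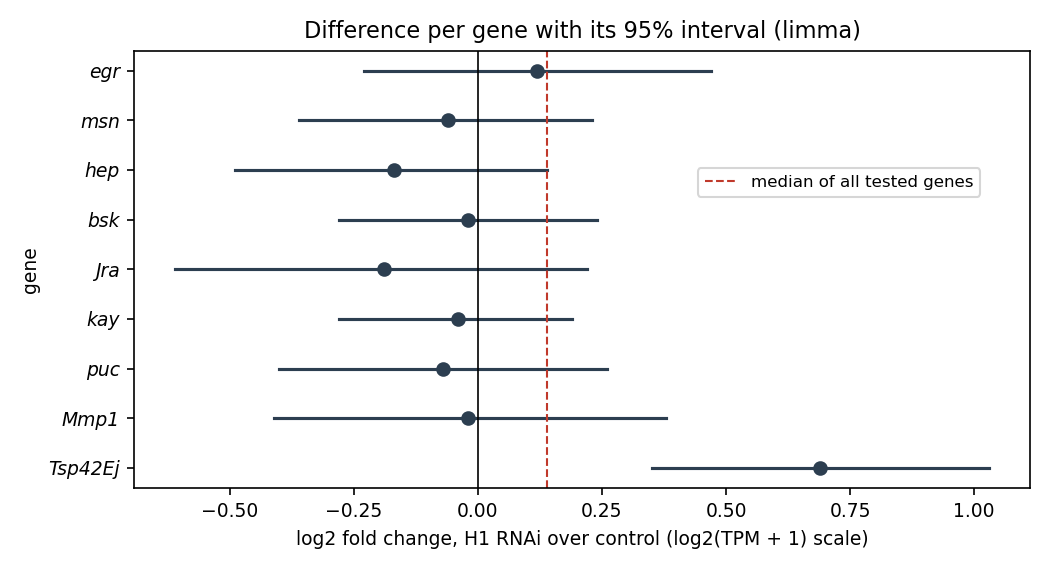
Log2 fold change of H1 RNAi over control on the log2(TPM + 1) scale (points) with limma's 95% interval (bars) for the 9 tested genes, and the median of all tested genes, 0.14, as a dashed line. The intervals include 0 for 8 genes, and that of Tsp42Ej runs from 0.35 to 1.03.

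Both AP-1 genes were high, and kay varied least of all 9. The gene kay (3R, 29765995 to 29794113, plus strand) encodes the Fos protein. It had 345.93, 334.86 and 366.23 TPM in H1 RNAi, against 357.51, 349.85 and 370.56 TPM in control, a coefficient of variation of 3.76% over the 6 libraries. The B library was the lowest and the C library the highest in both groups. Between groups the log2 fold change was -0.04 ± 0.10 (SE, adjusted p = 0.835), with an interval from 0.82-fold to 1.14-fold.

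The gene Jra (2R, 10096480 to 10098556, plus strand) encodes the Jun protein and varied more, with 216.15, 293.07 and 267.34 TPM in H1 RNAi, against 254.95, 278.45 and 358.03 TPM in control. Control C was the highest and H1 RNAi A the lowest of the 6, and the remaining libraries overlapped. The log2 fold change was -0.19 ± 0.18 (SE, adjusted p = 0.538), with an interval from 0.66-fold to 1.16-fold, the widest among the kinase and AP-1 genes. It was -0.05 without control C, -0.07 without H1 RNAi A and -0.33 with TMM scaling, and not called in any of the 15 alternatives. Transcripts of kay exceeded those of Jra by 1.37 ± 0.229 times in H1 RNAi and by 1.23 ± 0.185 times in control (SD, n = 3 each), and the ratio was above 1 in every library. Jra shares 39 bp of exon with RpLP0-like on the opposite strand, which lay between 100.65 and 143.66 TPM in H1 RNAi and between 108.99 and 149.85 TPM in control.

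The transcriptional readout of the pathway did not separate the groups. The gene puc (3R, 8105332 to 8122294, plus strand) encodes Puckered, the phosphatase that JNK induces and that inactivates JNK. It had 294.12, 395.97 and 367.66 TPM in H1 RNAi, against 343.76, 372.38 and 384.45 TPM in control. H1 RNAi held both the lowest and the highest of the 6 values. With H1 RNAi the log2 fold change was -0.07 ± 0.14 (SE, adjusted p = 0.814), with an interval from 0.76-fold to 1.20-fold, and without H1 RNAi A its sign turned, to 0.06. Transcripts of puc exceeded those of bsk, whose protein it inhibits, by 9.36 ± 1.66 times in H1 RNAi and by 9.58 ± 0.953 times in control (SD, n = 3 each).

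The gene Mmp1 (2R, 24671294 to 24688184, minus strand) encodes a matrix metalloproteinase, a protease of the extracellular matrix that JNK is known to induce in wounds and tumours. It had 224.82, 275.41 and 208.82 TPM in H1 RNAi, against 253.37, 196.27 and 268.45 TPM in control. The B libraries were the highest with H1 RNAi and the lowest in control, and the ranges overlapped almost fully. Its log2 fold change was -0.02 ± 0.17 (SE, adjusted p = 0.967), with an interval from 0.75-fold to 1.30-fold. It turned positive without H1 RNAi A, H1 RNAi C, control A or control C, up to 0.07. Mmp1 shares 284 bp of exon with Pof on the opposite strand, which was lower than Mmp1 in all libraries, at most 15.72 TPM in H1 RNAi and 13.99 TPM in control.

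Mmp1 is also known from blood cells, trachea and muscle, so markers of those cells were read beside it. Of 8 hemocyte markers, 5 were below 1 TPM in all 6 libraries, and the blood cell genes Hml and NimC1 reached at most 0.02 and 0.03 TPM in H1 RNAi and 0.07 and 0.17 TPM in control. Most of the hemocyte sum, between 182 and 202 TPM in H1 RNAi and between 194 and 245 TPM in control, was crq, a scavenger receptor gene. Of 8 tracheal markers, 5 were below 1 TPM in all 6 libraries, and the fate factor genes trh and vvl reached at most 0.08 and 0.04 TPM in H1 RNAi and 0.15 and 0.02 TPM in control. The tracheal sum was between 31.1 and 44.6 TPM in H1 RNAi and between 13.9 and 35.9 TPM in control, most of it from pyd3 and the FGF receptor gene btl. Of 11 muscle markers, 7 were below 1 TPM in all 6 libraries, with the myosin gene Mhc at most 0.44 TPM in H1 RNAi and 0.52 TPM in control. The sum of the muscle list was between 104 and 129 TPM in H1 RNAi and between 116 and 123 TPM in control, and nearly all of it was Tm1. The other matrix metalloproteinase gene, Mmp2, averaged 2.96 ± 0.545 TPM in H1 RNAi and 2.99 ± 1.61 TPM in control, and the inhibitor gene Timp averaged 79.6 ± 15.0 TPM in H1 RNAi and 74.8 ± 6.25 TPM in control (SD, n = 3 each). None of these 3 genes was called by limma, against 2.83% of all tested genes (0 at an unadjusted p under 0.05, against 23.8%).

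Tsp42Ej was the only one of the 9 whose groups did not overlap, where the groups of 30.8% of all tested genes do not overlap, with 24.3% higher and 6.45% lower in H1 RNAi. The gene (2R, 7040136 to 7042762, plus strand) encodes Sunglasses, a tetraspanin, a membrane protein with 4 membrane-spanning segments, known from the lysosomal breakdown of rhodopsin in the fly eye. It had 8.18, 9.98 and 9.0 TPM in H1 RNAi A, B and C, against 4.81, 5.86 and 5.06 TPM in control A, B and C. All 3 H1 RNAi values were above all 3 control values, and A was the lowest and B the highest in both groups. On the log2 scale the fold change was 0.69 ± 0.14 (SE, unadjusted p = 0.00205, adjusted p = 0.0581, limma), with a 95% interval from 1.27-fold to 2.04-fold on the log2(TPM + 1) scale. Of all tested genes, 8.36% had a larger change in either direction. The adjusted p was 0.0451 without control B, 0.0437 with ordinary moderation and 0.0313 with array weights, and over all 15 alternatives it ran from 0.0313 to 0.244, with log2 fold changes between 0.46 and 0.78. The enteroendocrine marker sum, carried by NPF and Tk, was lower in every H1 RNAi library than in every control library. Of the 13 markers, 7 were lower without overlap and 2, Mip and CCHa2, were higher without overlap, against 6.45% and 24.3% of all tested genes. The part of enteroendocrine cells in the Tsp42Ej difference was not tested.

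Tsp42Ej lies in a cluster of related tetraspanin genes on 2R, and the cluster did not move with it as a block. Of 17 cluster genes, 13 were tested and 0 were called by limma, against 2.83% of all tested genes. The list median log2 fold change was 0.13, against 0.14 for all tested genes. At an unadjusted p under 0.05 there were 3 of 13 (1 higher, 2 lower in H1 RNAi), against 23.8% of all tested genes (19.1% higher, 4.75% lower). The higher one was Tsp42Ej. The lower ones were Tsp42El, with 157.96, 145.94 and 146.53 TPM in H1 RNAi against 190.07, 169.15 and 197.94 TPM in control (log2 fold change -0.30, adjusted p = 0.162), and Tsp42Eg, at 2.20 ± 0.425 TPM in H1 RNAi and 3.53 ± 0.590 TPM in control (adjusted p = 0.178). The most abundant cluster genes were Tsp42Ee, at 343 ± 106 TPM in H1 RNAi and 333 ± 153 TPM in control, and Tsp42Ed, at 239 ± 29.8 TPM in H1 RNAi and 223 ± 43.8 TPM in control (SD, n = 3 each). The next gene along, Tsp42Ek, shares 107 bp of exon with Tsp42Ej on the same strand. It had 1.02, 1.33 and 1.76 TPM in H1 RNAi against 0.61, 0.94 and 0.73 TPM in control (log2 fold change 0.42, adjusted p = 0.261). The groups of Tsp42Ek did not overlap either, and the sources used here do not say how reads of the shared stretch were split.

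For puc, Jra and Mmp1 the libraries of each group differed by more than the group means did, and for hep those of H1 RNAi did but those of control did not. The highest H1 RNAi library exceeded the lowest by 1.35 times for puc, 1.36 times for Jra, 1.38 times for hep and 1.32 times for Mmp1, and the highest control library exceeded the lowest by 1.12, 1.40, 1.06 and 1.37 times for the same genes. The ratios of the H1 RNAi mean to the control mean were 0.96, 0.87, 0.89 and 0.99 for these 4 genes. Library A was the lowest of both groups for 3 of 9 genes, Jra, puc and Tsp42Ej, against 11.3% of all tested genes, library B for 2 of 9, egr and kay, against 8.04%, and library C for 0 of 9, against 27.7%. Library A was the highest of both groups for 1 of 9 genes, msn, against 25.6% of all tested genes, library B for 1 of 9, Tsp42Ej, against 14.7%, and library C for 2 of 9, egr and kay, against 4.70%.

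**Figure D3:**
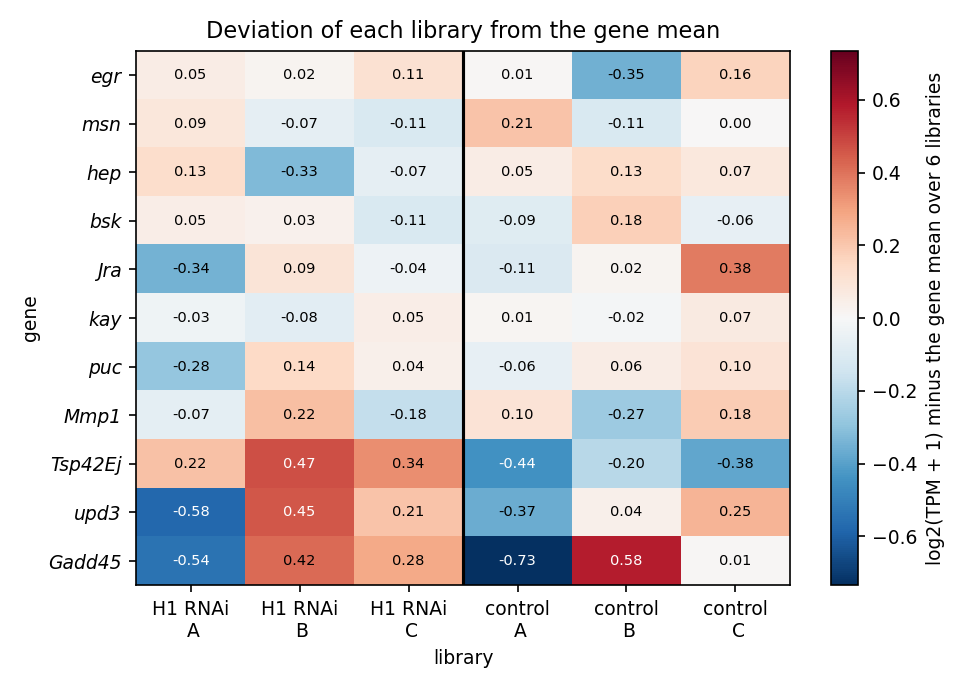
Log2(TPM + 1) of each library minus the mean of that gene over the 6 libraries, for the 9 tested genes, the cytokine gene upd3 and the stress gene Gadd45, with H1 RNAi libraries left of the line and control libraries right of it. For puc, upd3 and Gadd45 the A library is the lowest of both groups, and only Tsp42Ej has all H1 RNAi libraries above and all control libraries below its mean.

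The stress-induced genes upd3 and Gadd45 were chosen for a description by library after their values were seen. The gene upd3, a cytokine of the JAK/STAT pathway that stressed gut cells secrete, had 141.42, 290.31 and 244.68 TPM in H1 RNAi A, B and C, against 163.90, 216.85 and 251.33 TPM in control A, B and C. Gadd45, whose product binds a kinase upstream of JNK and p38, had 226.74, 442.28 and 400.67 TPM in H1 RNAi, against 198.39, 494.20 and 332.28 TPM in control. Library A was the lowest for both genes in both groups, as for Jra, puc and Tsp42Ej. Among the tested target genes listed below, upd2, Fas3, jar, GstD1, Thor and NLaz also had library A lowest in both groups. It was the highest in both groups for chic, Hsp68, Hsp26 and Hsp27, and neither for Mmp1, Ets21C, cher, Prx2 and foxo. The enterocyte marker sum was also lowest in library A of both groups, at 640 TPM in H1 RNAi A and 459 TPM in control A. The sums of the heat shock and dissociation genes were highest in library A. They were 8753, 8088 and 5072 TPM in H1 RNAi A, B and C and 13882, 6689 and 7503 TPM in control A, B and C. Of this list Hsp23, Hsp26, Hsp27, Hsp68, Hsp83 and Hsp70Ab were highest in library A of both groups, against 25.6% of all tested genes. The other tested genes of the list were not, and DnaJ-1 and Hsp70Ba were lowest in H1 RNAi A. The part of cell mixture or of handling in these library differences was not tested.

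The genes whose profile over the 6 libraries was most like that of puc were sought among 6511 tested genes with a mean of at least 5 TPM, by the root mean square difference of centred log2(TPM + 1) values. They were Acox57D-d (0.0549), WASp (0.0564), CG34408 (0.0569), Khc-73 (0.0656) and CtsL1 (0.0662), none of them called, with log2 fold changes between -0.15 and 0.02. Those most like Tsp42Ej were jet (0.0561), clt (0.0568), CG5274 (0.0592), CG6685 (0.0667) and Mvb12 (0.0732). Their log2 fold changes were 0.67, 0.67, 0.65, 0.76 and 0.57, and the first 4 were called by limma (adjusted p = 0.0366, 0.0336, 0.0330 and 0.0418) while Mvb12 was not (0.0607). The group difference is part of the profile, so similar log2 fold changes follow from how these genes were chosen.

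No tested gene on the wider lists of the pathway was called either, where 2.83% of all tested genes were. At that share lists this short may hold none. Of 23 genes for receptors, adaptors and upstream kinases, 22 were tested and 0 were called by limma, with a median log2 fold change of 0.10. At an unadjusted p under 0.05 there were 5 (3 higher, 2 lower in H1 RNAi), against 23.8% of all tested genes (19.1% higher, 4.75% lower). The kinase gene Mekk1 averaged 72.8 ± 3.09 TPM in H1 RNAi and 50.0 ± 10.5 TPM in control (adjusted p = 0.10), and Tak1, a kinase gene downstream of Eiger and of immune receptors, averaged 35.9 ± 2.86 TPM in H1 RNAi and 28.9 ± 1.72 TPM in control (adjusted p = 0.138). The adaptor gene dock, whose product binds Misshapen, had 28.29, 23.36 and 23.20 TPM in H1 RNAi, against 35.49, 33.20 and 34.08 TPM in control. All 3 H1 RNAi values of dock were below all 3 control values. Its log2 fold change was -0.45 ± 0.11 (SE, adjusted p = 0.0787), and it was called with TMM scaling (-0.58, adjusted p = 0.0415), with quantile normalization (-0.61, 0.0393) and with array weights (-0.49, 0.0403). Mekk1 was called with array weights (0.64, adjusted p = 0.0368) and without control B (0.71, 0.0223).

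**Figure D4:**
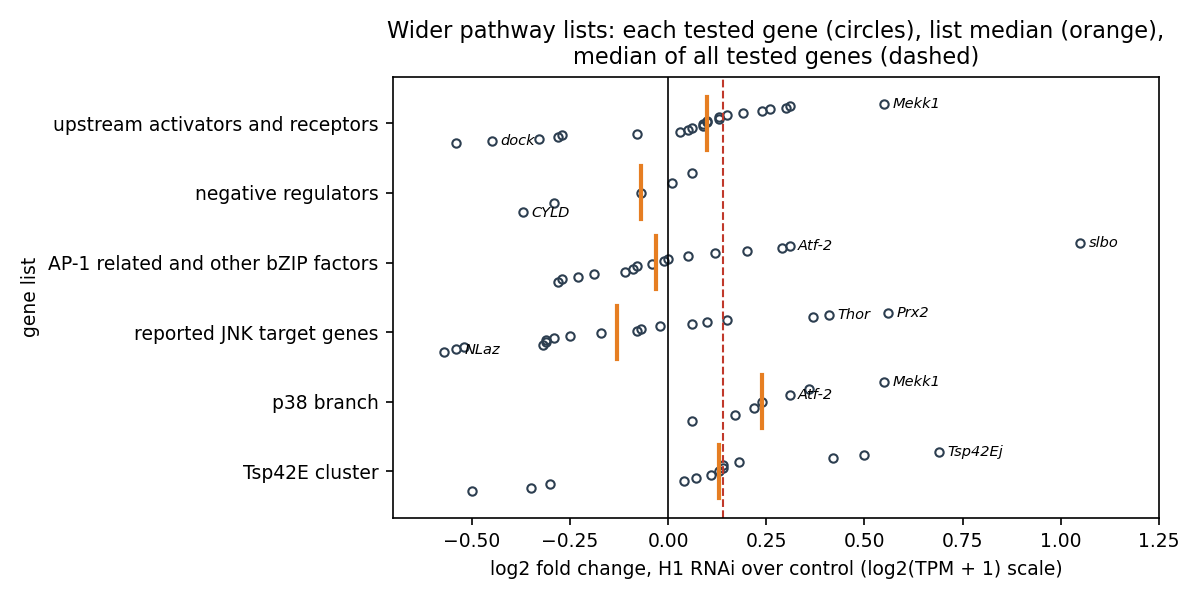
Log2 fold change of H1 RNAi over control (log2(TPM + 1) scale) for each tested gene of 6 lists (circles), with list medians as orange bars and the median of all tested genes, 0.14, dashed. Most genes lie within 0.4 of 0, the p38 median is 0.24 and the target gene median is -0.13.

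On the list drawn up under the heading of negative regulators, no tested gene was called. That heading is loose, since the list also holds Mkp3, CYLD and Cka, so its counts are not counts of JNK inhibitors. Of 6 matched genes 5 were tested and 0 called, against 2.83% of all tested genes, with a median log2 fold change of -0.07. At an unadjusted p under 0.05 there was 1, which was lower, against 4.75% of all tested genes lower. In 2 of the 5 genes, CYLD and Mkp3, all H1 RNAi values were below all control values, where 6.45% of all tested genes are. The gene past the unadjusted threshold was CYLD, which encodes a deubiquitinase and averaged 15.0 ± 2.61 TPM in H1 RNAi and 19.5 ± 1.29 TPM in control (adjusted p = 0.167, limma). The ERK phosphatase gene Mkp3 averaged 31.1 ± 3.86 TPM in H1 RNAi and 38.3 ± 4.45 TPM in control (adjusted p = 0.232). The gene raw, known for restraining JNK signalling in the embryo, was at 167 ± 10.6 TPM in H1 RNAi and 159 ± 6.15 TPM in control (SD, n = 3 each). Mkp was listed at 0 in all H1 RNAi libraries and reached 0.10 TPM in control.

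Of 16 genes for AP-1 and other bZIP factors, all were tested and 0 were called by limma, against 2.83% of all tested genes. The list median log2 fold change was -0.03. At an unadjusted p under 0.05 there was 1 of 16, against 23.8% of all tested genes. That gene was Atf-2, a factor that stress kinases phosphorylate, with 19.85, 19.41 and 18.29 TPM in H1 RNAi against 16.53, 14.73 and 14.48 TPM in control (log2 fold change 0.31, adjusted p = 0.122). The groups of Atf-2 did not overlap. The small Maf gene maf-S averaged 54.1 ± 0.223 TPM in H1 RNAi and 63.8 ± 7.23 TPM in control (adjusted p = 0.276), and Atf6, of the unfolded protein response, 17.2 ± 2.88 TPM in H1 RNAi and 21.1 ± 2.59 TPM in control (adjusted p = 0.298). The most abundant factor was Xbp1, also of the unfolded protein response, at 1297 ± 94.3 TPM in H1 RNAi and 1303 ± 202 TPM in control. The C/EBP gene slbo, named after its values were seen, had 7.12, 10.45 and 11.77 TPM in H1 RNAi, against 1.65, 18.83 and 1.56 TPM in control. Control B alone held the highest value of slbo, and without that library it was called higher (log2 fold change 2.02, adjusted p = 0.00876).

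None of the tested genes reported as JNK targets in flies was called, where 2.83% of all tested genes were. At that share a list of this length may hold none. The genes upd1, Ilp8, scaf, dpp, Pvf1 and l(2)efl did not reach the minimum level for testing, and zip had no row. Of 24 matched genes 18 were tested and 0 were called by limma, with a median log2 fold change of -0.13, against 0.14 for all tested genes. At an unadjusted p under 0.05 there were 2 of 18 (1 higher, 1 lower), against 23.8% of all tested genes. The log2 fold change was below 0 for 12 of the 18, against 31.7% of all tested genes. Among these 12, puc, Mmp1, chic, GstD1 and Fas3 lay closer to 0 than their SE. In 2 of the 18, cher and foxo, all H1 RNAi values were below all control values, where 6.45% of all tested genes are. The transcription factor gene foxo, named after its values were seen, averaged 65.3 ± 11.0 TPM in H1 RNAi and 80.4 ± 4.33 TPM in control (adjusted p = 0.247). Thor, the translation inhibitor 4E-BP, averaged 2125 ± 323 TPM in H1 RNAi and 1605 ± 274 TPM in control (adjusted p = 0.183). The lipocalin gene NLaz averaged 13.6 ± 2.62 TPM in H1 RNAi and 20.4 ± 5.13 TPM in control (adjusted p = 0.194), and the filamin gene cher 208 ± 16.9 TPM in H1 RNAi and 247 ± 16.3 TPM in control (adjusted p = 0.247). The most abundant were GstD1, a glutathione S-transferase gene, at 7109 ± 2239 TPM in H1 RNAi and 8529 ± 4260 TPM in control, and the small heat shock gene Hsp26, at 1940 ± 566 TPM in H1 RNAi and 2373 ± 801 TPM in control (SD, n = 3 each). The peroxiredoxin gene Prx2, looked up under its older name Jafrac1 and named after its values were seen, had 302.11, 365.85 and 287.45 TPM in H1 RNAi against 175.95, 338.14 and 165.75 TPM in control. It was called higher only without control B (log2 fold change 0.89, adjusted p = 0.0243) among the 15 alternatives.

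The parallel p38 stress kinase branch had the highest median log2 fold change of the 5 signalling lists, 0.24 over 7 tested genes, against 0.14 for all tested genes. By limma 0 were called, against 2.83% of all tested genes. An unadjusted p under 0.05 was found for 3, all higher, against 19.1% of all tested genes higher at that threshold. These 3 were Mekk1, Atf-2 and Ask1, which the lists above also hold, and Ask1, a stress-activated kinase gene, averaged 19.1 ± 0.895 TPM in H1 RNAi and 16.0 ± 0.847 TPM in control (adjusted p = 0.186). In 4 of the 7 genes all H1 RNAi values were above all control values, where 24.3% of all tested genes are. The kinase gene p38b averaged 48.2 ± 6.32 TPM in H1 RNAi and 46.3 ± 4.86 TPM in control, and its log2 fold change of 0.06 became -0.08 with TMM scaling and -0.07 with quantile normalization. Those scalings moved the median of all tested genes from 0.14 to 0.01 and -0.01.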

How the data were processed

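RNA-seq of 3 H1 RNAi and 3 control libraries was analysed. The authors deposited TPM per gene and library, 1 column each, rounded to 2 decimals. Per the labels' protocols, RNA was isolated with a PicoPure kit and libraries were made with a stranded mRNA kit. Per the submitters' processing notes, with no role stated, the tool is bcl2fastq and the genome build dm6. The sources used here give no aligner, counting tool or annotation, and depth cannot be recovered from TPM. Columns were assigned through the sample descriptions.

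Symbols came from a gene name table (17709 of 17807 identifiers), and list names that are no current symbol were matched by RefSeq synonym. Coordinates and exon overlaps are from Ensembl release 115 (BDGP6.54, 1-based). Genes that reached 1 TPM in 3 or more libraries were fitted on log2(TPM + 1) with limma 3.58.1 in R 4.3.3, with a mean trend and robust moderation, and p-values were adjusted by Benjamini-Hochberg at 0.05. Fold changes on this scale understate changes near 1 TPM. Intervals are limma's unadjusted 95% intervals, and group errors are SD over 3 libraries. An exact permutation test of 3 against 3 cannot go below 0.1, so none was used. Tables and plots were made in Python 3.11.15 (numpy 2.4.6, pandas 2.3.3, matplotlib 3.10.9).

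The members and lists were chosen with earlier results of these data known. Named genes were all members, called genes of the wider lists, otherwise the 3 with the smallest adjusted p and the 2 with the highest mean TPM per list, the 5 nearest profiles to puc and to the member with the largest change, and genes overlapping a member. Of the list names, 4 matched no row. Marker lists for enterocytes, enteroendocrine cells, muscle, hemocytes, trachea, fat body and heat shock genes were read beside the members. The procedure was tested on simulated data. The closing section gives the alternatives.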

Additional observations from a re-analysis of the deposited data

How the results depend on the processing

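Of 135 member values under 15 alternatives, 121 kept direction and side of the threshold, 3 (Tsp42Ej) passed it and 11 changed sign, each with the values near 0 and none of them called. The sign changed for egr with TMM scaling (-0.01) and for bsk with array weights (0.02). With each library left out in turn, log2 fold changes ran from -0.02 to 0.23 for egr, -0.14 to 0.02 for msn, -0.28 to -0.06 for hep, -0.30 to -0.05 for Jra, -0.08 to -0.01 for kay, -0.07 to 0.06 for bsk, -0.16 to 0.06 for puc, -0.15 to 0.07 for Mmp1 and 0.62 to 0.76 for Tsp42Ej. Tsp42Ej was called with ordinary moderation (0.69), with array weights (0.75) and without control B (0.76). So 1 of the JNK genes and 1 of the tetraspanin cluster was called in these 3 settings, and 0 in the others. Left-out libraries gave 0 to 1 calls among the JNK genes, upstream activators, bZIP factors, target genes, p38 genes and tetraspanins, the 1 always without control B. The upstream list had 1 call with TMM scaling, 1 with quantile normalization and 2 with array weights, and the p38 list had 1 with array weights.

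The 230 calls over all genes (185 higher, 45 lower) were 90 with no filter (75 higher, 15 lower), 141 with TMM scaling (88 higher, 53 lower, 62.4% higher against 80.4%), 146 with quantile normalization (83 higher, 63 lower, 56.8% higher), 547 with array weights (446 higher, 101 lower) and 29 to 450 with a library left out (24 to 389 higher, 5 to 61 lower). The fewest calls came without H1 RNAi B and the most without control B.

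Other named genes kept direction and side in 335 of 373 values, and 33 changed sign. With TMM scaling these were Gadd45 (-0.03), raw (-0.07), Xbp1 (-0.13), p38b (-0.08), Tsp42Ed (-0.02), Tsp42Ee (-0.01), Mmp2 (-0.04) and Timp (-0.06). With quantile normalization they were raw (-0.01), p38b (-0.07), Mmp2 (-0.11) and Timp (-0.03), and with array weights p38b (-0.00) and GstD1 (0.06). With a library left out, values ran from -0.24 to 0.41 for Gadd45, -0.07 to 0.12 for Xbp1, -0.63 to 0.18 for GstD1, -0.04 to 0.13 for p38b, -0.05 to 0.24 for Tsp42Ed, -0.32 to 0.43 for Tsp42Ee, -0.16 to 0.36 for Mmp2 and -0.07 to 0.18 for Timp. The causes were not tested.

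The replicate letter as a block gave 142 calls (107 higher, 35 lower) and 0 among the JNK genes. Same-letter deviations from the group means correlated at 0.400 for A, 0.136 for B and 0.0931 for C. H1 RNAi A and B correlated best with the control library of their own letter, and H1 RNAi C with control B (0.169). Whether the letters pair the samples is not settled by these values. The main fit used no block because the labels do not say that a letter marks a shared batch. TPM carries no depth, so counting error is unknown, which limits grnd and wgn most.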
